A study of Mus musculus with 48 samples.

Results

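Ribosome biogenesis factors are the proteins that make, modify, fold and export ribosomal RNA and load it with ribosomal proteins, and 47 of their genes were followed here in mouse macrophages. The members were chosen by role, with earlier results of these data known, so their shares describe the list and do not test it. They were a list of gene symbols matched to the identifiers of the count table. All 47 were found there, among 49315 genes, and all 47 were among the 13986 genes with enough counts to be tested. By role they comprised 3 genes of RNA polymerase I transcription, 4 of the box C/D and 4 of the box H/ACA small nucleolar ribonucleoproteins (snoRNPs), 6 abundant nucleolar proteins, 12 of the small-subunit (SSU) processome, 5 of late 40S maturation and 13 of 60S assembly.

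In the nucleolus, RNA polymerase I transcribes a long precursor that holds the RNAs of both ribosomal subunits. Box C/D snoRNPs methylate it, box H/ACA snoRNPs convert uridines to pseudouridine, the SSU processome folds and cuts the part that becomes the small subunit, and separate sets of factors assemble the large subunit and carry both to the cytoplasm. Genes of this pathway are known targets of the transcription factor Myc and are raised when cells enter growth, and macrophages sensing bacterial products change both their secretory output and their growth programme.

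PolyA RNA had been sequenced from macrophages grown out of the bone marrow of 16 mice, which gave 48 libraries. Each of 4 genotypes had 4 mice, of both sexes in equal number by the labels. The genotypes were wild type (WT), LynAKO, LynBKO and LynKO, which lack the LynA isoform, the LynB isoform or all of the Src-family kinase Lyn. Marrow cells were differentiated in medium conditioned by CMG14-12 cells as a source of M-CSF, rested overnight without M-CSF, and then kept for 2 h in medium alone (NT), with LPS of S. Minnesota R595, the ligand of TLR4, at 2 ng/mL, or with 20 ng/mL R848 (resiquimod), a small-molecule ligand of TLR7. Every library, the NT controls included, therefore came from cells without M-CSF, while strain, age and the construction of the alleles are not stated in the labels.

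Total counts were 14974764 to 23321447 per library. Summed macrophage markers (10 genes) lay between 23206 and 52162 CPM (here counts scaled by library size, without TMM). Neutrophil and granulocyte progenitor markers reached at most 26.8, dendritic cell markers 12.1 and B cell markers 6.20. In CPM scaled by library size and TMM, as used for the members below, Lyn stood at 177 ± 10.4 (SD, n = 4) in untreated WT. It stood at 67.6 ± 4.15 in untreated LynKO, so reads at the gene persist in the knockout and the count checks the label only by its size. Transcripts of both sexes were present in 2 libraries labelled female, LynBKO NT replicate 4 (161.6 CPM of Y-linked genes, without TMM) and LynKO NT replicate 4 (89.6 CPM). The other 22 libraries labelled female had at most 0.654 CPM of them. Counts of calls that rest on the LynBKO or LynKO NT libraries are given with and without both, while sums and levels by library include them. In LynBKO the replicate numbers do not follow a mouse from NT to the ligands: NT replicate 2 is labelled female (Xist at 294 CPM) and LPS and R848 replicates 2 male, and NT replicate 3 is labelled male (268 CPM of Y-linked genes) and LPS and R848 replicates 3 female.

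Promoter sequence is shown first because Myc and its partners bind the E-box letters CACGTG, and Myc itself rose with both ligands. RefSeq windows of 300 bases, from 250 before to 50 after the start of a gene (GRCm38.p6), were at hand for 42 of the 47 members. CACGTG, searched on both strands (it reads the same on each), lay in the windows of 11 of the 42, which is 26.2%, against 11.7% of the 10020 tested genes with a window and 8.09% of all 27025 genes with one. The stretches below run from 90 bases before to 30 bases after the start, 5′ to 3′ on the strand of the gene, with CACGTG in capitals. They are the 6 members that hold the letters in this stretch, together with Nop58, the highest riser with a window, and Imp3, the member that fell most, neither of which holds them.
Nop2, chr6:125131793-125131912, plus strand: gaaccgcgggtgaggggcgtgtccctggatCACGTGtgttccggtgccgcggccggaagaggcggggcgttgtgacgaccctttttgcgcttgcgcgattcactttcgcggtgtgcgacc
Pes1, chr11:3963885-3964004, plus strand: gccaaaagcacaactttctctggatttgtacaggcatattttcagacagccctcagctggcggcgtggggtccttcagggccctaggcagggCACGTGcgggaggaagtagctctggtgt
Tsr1, chr11:74897990-74898109, plus strand: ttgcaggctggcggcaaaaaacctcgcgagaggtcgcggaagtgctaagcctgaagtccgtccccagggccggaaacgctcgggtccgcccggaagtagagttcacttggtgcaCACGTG
Utp18, chr11:93885737-93885856, minus strand: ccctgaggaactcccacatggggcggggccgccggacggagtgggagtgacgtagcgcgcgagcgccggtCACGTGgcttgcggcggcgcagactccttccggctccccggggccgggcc
Rrn3, chr16:13780609-13780728, plus strand: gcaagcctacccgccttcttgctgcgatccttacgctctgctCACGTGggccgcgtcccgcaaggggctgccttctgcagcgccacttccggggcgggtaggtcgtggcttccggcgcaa
Wdr43, chr17:71616125-71616244, plus strand: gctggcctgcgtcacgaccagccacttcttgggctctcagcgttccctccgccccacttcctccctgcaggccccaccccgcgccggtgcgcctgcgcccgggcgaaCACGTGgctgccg
Nop58, chr1:59684916-59685035, plus strand: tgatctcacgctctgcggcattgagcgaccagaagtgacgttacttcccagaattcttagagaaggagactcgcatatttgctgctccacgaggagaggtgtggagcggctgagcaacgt
Imp3, chr9:56937410-56937529, plus strand: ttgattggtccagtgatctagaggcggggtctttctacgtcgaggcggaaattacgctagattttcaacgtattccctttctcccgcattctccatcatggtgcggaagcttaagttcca
The other members with the letters in their 300 bases were Imp4, Grwd1, Ltv1, Utp20 and Mybbp1a. Other promoter letters, searched on both strands, did not all stand out in the same way: the GC box GGGCGG was in 71.4% of the members with a window and 67.1% of the tested genes with one, the ETS core CCGGAAG in 33.3% and 20.6%, and the TATA box TATAAA in 4.76% and 8.80%. A match of letters describes the window and does not show that a factor was bound there.

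With LPS in WT, most ribosome biogenesis factors rose. Of the 47 members, 34 (72.3%) were higher and 6 (12.8%) lower after 2 h than in untreated cells, where 31.5% of all genes tested were higher and 30% lower (edgeR, adjusted p under 0.05). The median log2 fold change of the members was 0.53, against -0.03 over all genes tested. With R848 in WT, 33 members (70.2%) were higher and 4 (8.51%) lower, where 30% of all genes were higher and 26.7% lower, and the members' median was 0.37 against -0.03 over all genes. The untreated libraries are shared by the LPS and the R848 comparison, which are therefore not independent. In bulk RNA a change in the make-up of the cells and a change in RNA per cell cannot be told apart.

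These counts depend on how libraries are put on 1 scale, because LPS and R848 changed the make-up of the RNA. TMM scaling, used throughout, sets the bulk of genes to no change, with factors of 1.15 to 1.20 in the untreated WT libraries, 0.79 to 0.86 with LPS and 0.92 to 0.96 with R848. When total counts were used in its place, an alternative chosen after these factors were seen, the median of all genes moved by -0.51 with LPS and -0.37 with R848. Then 14 members were higher and 14 lower with LPS in WT (17% and 56.7% of all genes), with a median of 0.02, and 13 were higher and 11 lower with R848 (17.6% and 48.7% of all genes), with a median of 0.01. Changing the scale moves all genes by a like amount, so the distance of the members' median from that of all genes could hardly change. It was 0.55 and 0.56 with LPS and 0.40 and 0.40 with R848 under TMM and total counts. Fold changes below are therefore relative to the bulk of genes. All 14 and 13 members higher by total counts were among those higher by TMM. Since total counts lowered the ligand fold changes, this could hardly be otherwise. The variance-stabilised values that the authors deposited, which they made with DESeq2, had 38 members above 0 and 9 below for the difference between the means with LPS and without in WT, with a median difference of 0.42 (log2).

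**Figure D1:**
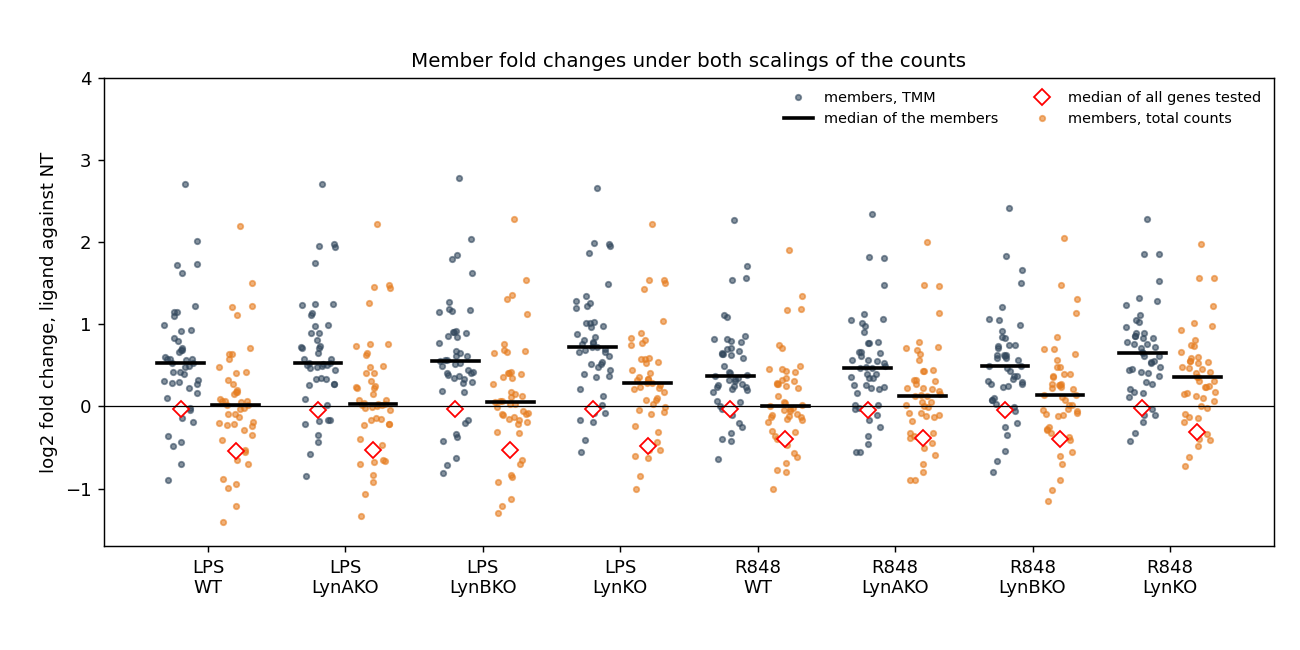
log2 fold change of each of the 47 members (points, vertical axis) for LPS and R848 against NT in each genotype (horizontal axis), with TMM scaling (dark) and with total counts (orange). Bars are the members' medians and red diamonds the medians of all 13986 genes tested. A change of scale moves both by a like amount. With LPS in WT, total counts moved them from 0.53 to 0.02 for the members and from -0.03 to -0.54 for all genes.

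Among the 3 members of RNA polymerase I transcription, only Rrn3, the initiation factor that brings the polymerase to its promoter, rose with both ligands in WT. Rrn3 had 27.5, 28.2, 31.1 and 27.1 CPM in the untreated WT libraries, 46.7, 49.0, 46.4 and 39.6 with LPS, and 44.1, 42.3, 50.3 and 47.2 with R848. Neither treated group overlapped the untreated group, and the fold changes were 1.61 with LPS and 1.64 with R848 (log2 0.69 ± 0.09, SE, and 0.72 ± 0.09). By total counts the LPS value for Rrn3 was 0.17 (edgeR adjusted p = 0.094) and no longer passed. Polr1a, the largest subunit of the polymerase, went the other way with LPS, from 34.4, 40.2, 47.6 and 32.1 CPM to 28.8, 32.5, 31.9 and 25.5. These groups overlapped at 1 library, and the fold change was -0.36 ± 0.13 (log2, edgeR adjusted p = 0.025). It also passed by total counts, which lower the ligand fold changes and could hardly give another outcome. With R848 Polr1a stood at 39.9, 52.8, 50.5 and 38.3 CPM, with a log2 fold change of 0.26 ± 0.13 that did not pass (adjusted p = 0.10, edgeR). Polr1b, the next largest subunit, did not pass with either ligand in WT (0.16 ± 0.14 with LPS, 0.24 ± 0.14 with R848, log2).

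All 4 box C/D snoRNP proteins rose with both ligands in WT. Nop58, a core protein of these particles, had 12.1, 19.5, 21.2 and 17.6 CPM untreated, 53.1, 79.2, 82.1 and 68.2 with LPS and 37.5, 44.4, 62.4 and 60.4 with R848. Every treated library was above every untreated one, and the fold changes were 4.05 with LPS and 2.95 with R848. The gene (chr1:59684971-59719044, plus strand, GRCm38) also hosts a small nucleolar RNA that overlaps its annotated exons, as do Nop56, Ncl and Gnl3, and counting may give such reads to either gene. Rrp9, the protein specific to the U3 particle, rose by 1.10 ± 0.13 with LPS and 0.49 ± 0.13 with R848 (log2), and Nop56, the partner of Nop58, by 0.79 ± 0.12 and 0.82 ± 0.12. The methyltransferase of the particle, fibrillarin (Fbl), had the smallest change of the 4. Its libraries moved from 46.9, 61.4, 54.2 and 52.7 CPM to 85.1, 84.5, 81.3 and 68.2 with LPS, without overlap, and to 54.5, 63.7, 65.4 and 72.3 with R848, with overlap. The log2 fold changes of Fbl were 0.58 ± 0.10 and 0.28 ± 0.10, and by total counts the R848 value turned to -0.092.

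The box H/ACA proteins did not move as a group. Gar1 rose with both ligands, from 9.21, 12.9, 12.4 and 12.0 CPM to 24.0, 25.3, 29.8 and 23.1 with LPS and 15.4, 14.8, 22.8 and 20.9 with R848, with no overlap in either case (2.22-fold and 1.62-fold). Nhp2 rose by 0.69 ± 0.08 with LPS and 0.21 ± 0.08 with R848 (log2). Dkc1, the pseudouridine synthase of the particle, did not pass in WT (0.31 ± 0.19 with LPS and 0.18 ± 0.19 with R848). Nop10, the smallest core protein, stood at 29.6, 33.1, 28.3 and 29.2 CPM untreated and 32.5, 28.5, 29.2 and 27.7 with LPS, groups that overlapped throughout (-0.01 ± 0.09). So 2 of the 4 subunits of 1 particle rose and 2 did not pass in WT.

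Of the 6 abundant nucleolar proteins, 5 rose with each ligand in WT. Gnl3 (nucleostemin), a GTPase that shuttles between nucleolus and nucleoplasm, had 16.3, 18.04, 19.9 and 17.8 CPM untreated, 38.3, 59.3, 66.5 and 55.3 with LPS and 36.8, 46.6, 64.1 and 59.2 with R848. The groups did not overlap, and the fold changes were 3.08 and 2.92. The RNA helicase Ddx21 rose by 1.15 ± 0.10 and 1.12 ± 0.10, Mybbp1a by 0.93 ± 0.07 and 0.78 ± 0.07, the snoRNP chaperone Nolc1 by 0.83 ± 0.14 and 0.64 ± 0.14, and nucleolin (Ncl) by 0.30 ± 0.09 and 0.32 ± 0.09 with LPS and R848 (log2). Nucleophosmin (Npm1) was the exception. It had the highest level per length of the members in untreated WT, 114 CPM per kilobase of exon against 53.5 for Rrp1, the next, and 1.33 for Wdr12, the lowest. Its libraries read 321, 316, 289 and 292 CPM untreated, 280, 323, 361 and 333 with LPS and 305, 279, 340 and 330 with R848. The 3 groups overlapped, the log2 fold changes were 0.11 ± 0.09 and 0.07 ± 0.09, and by total counts they became -0.40 and -0.30, which passed as lower. Npm1 has processed pseudogenes, and how reads shared with them were counted is not stated.

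In the SSU processome 8 of 12 members rose and 2 fell with LPS in WT, and the same counts, 8 and 2, held for R848. Wdr43, a subunit of the complex that binds the 5′ end of the precursor, moved furthest, from 26.3, 33.6, 34.1 and 28.9 CPM to 95.4, 105, 100.4 and 101 with LPS and 55.2, 53.9, 78.0 and 69.3 with R848. The 3 groups stood apart from each other, with fold changes of 3.30 and 2.12. Mphosph10, Utp20, Nop14, Utp18, Imp4 and Utp15 rose with both ligands, by 0.23 to 0.53 with LPS and 0.20 to 0.67 with R848 (log2), and none of these 6 passed as higher by total counts with LPS, where Imp4 (-0.24) and Utp15 (-0.28) passed as lower. Noc4l rose with LPS (0.58 ± 0.15) and not with R848 (0.01 ± 0.15), while Wdr75 passed with R848 (0.64 ± 0.19) and not with LPS (0.42 ± 0.19, edgeR adjusted p = 0.059). Heatr1 did not pass with either.

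The members of the SSU processome that fell were Imp3 and Utp14a. Imp3 (chr9:56937475-56938398, plus strand) read 32.4, 24.2, 29.1 and 30.0 CPM untreated, 16.6, 13.1, 13.6 and 18.5 with LPS and 20.2, 18.2, 14.3 and 20.0 with R848. The treated groups lay wholly below the untreated one, with fold changes of 0.538 and 0.641. In the precursor, Imp3 works in a complex with Imp4 and Mphosph10, so the subunits of 1 complex changed unequally: -0.89 ± 0.14, 0.27 ± 0.08 and 0.53 ± 0.14 with LPS (log2). Utp14a, which activates a helicase that releases the U3 RNA, changed by -0.48 ± 0.14 and -0.40 ± 0.14, with libraries that overlapped the untreated ones in WT. Its exons overlap an antisense gene, 9530027J09Rik, over 473 bases, and the strand setting of the counting is not stated.

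Late 40S maturation had 4 risers of 5 with each ligand in WT. Tsr1, a GTPase-like factor that holds the small subunit inactive until its last steps, went from 13.8, 15.1, 14.4 and 13.2 CPM to 38.0, 51.5, 53.1 and 43.5 with LPS and 36.6, 43.7, 57.5 and 43.5 with R848, with no overlap (3.33-fold and 3.27-fold). The exons of Tsr1 overlap those of the antisense gene Srr over 1240 bases, so its counts are uncertain in the same way. Ltv1, which is removed as the head of the subunit folds, rose by 0.92 ± 0.13 and 0.80 ± 0.13, Nob1, the nuclease that makes the last cut of the small-subunit RNA, by 0.49 ± 0.10 and 0.34 ± 0.10, and Bysl by 0.58 ± 0.09 and 0.24 ± 0.09 (log2). Bysl overlaps exons of Ccnd3 over 361 bases. Rrp12, an export factor, stood at 11.3, 13.8, 15.9 and 13.4 CPM untreated, 12.0, 14.1, 14.2 and 11.8 with LPS, and 13.7, 13.3, 14.2 and 14.4 with R848, and it did not pass with either (-0.05 ± 0.12 and 0.06 ± 0.12).

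Of the 13 genes of 60S assembly, 10 rose and 3 fell with LPS in WT, and 9 rose and 2 fell with R848. Rrs1, which docks the 5S particle into the nascent large subunit, changed most of all members. Rrs1 (chr1:9545408-9547455, plus strand) read 27.3, 22.0, 21.3 and 22.4 CPM untreated, 158, 143, 157 and 145 with LPS and 94.8, 97.0, 118 and 131 with R848. The 3 groups did not overlap, and the fold changes were 6.54 and 4.83 (log2 2.71 ± 0.11 and 2.27 ± 0.11). Grwd1, a chaperone of a large-subunit protein, rose by 1.22 ± 0.15 and 0.86 ± 0.15, and the RNA methyltransferase Nop2 by 1.00 ± 0.12 and 0.82 ± 0.12 (log2). Noc3l, Rrp15, Nop16, Bop1, Ftsj3 and Rrp1 rose by 0.39 to 0.71 with LPS and 0.24 to 0.62 with R848. Noc2l passed with LPS (0.28 ± 0.06) and not with R848 (-0.03 ± 0.06), and its exons overlap those of Samd11 over 598 bases.

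Members of the PeBoW complex, which is built from Pes1, Bop1 and Wdr12 and is needed to mature the large-subunit RNA, changed in opposite directions relative to the bulk of genes. Wdr12 fell from 12.8, 15.9, 15.6 and 19.4 CPM to 10.0, 9.61, 10.9 and 8.48 with LPS and 10.7, 12.2, 11.2 and 12.4 with R848, below every untreated library (-0.70 ± 0.13 and -0.42 ± 0.13, log2). Pes1 changed by -0.19 ± 0.07 and -0.25 ± 0.07, from 122, 124, 119 and 118 CPM to 112, 104, 98.0 and 106 with LPS. Bop1 changed by 0.57 ± 0.08 and 0.32 ± 0.08, from 45.5, 43.8, 43.8 and 44.4 CPM to 75.3, 64.6, 60.2 and 60.3 with LPS. By total counts Bop1 stood at 0.05 and -0.05, which did not pass. Pes1 and Wdr12 stayed lower with both ligands, as members lower by TMM could hardly fail to do. Rrp1b fell with LPS only (-0.43 ± 0.17, with overlap of the libraries), and with R848 its value was -0.33 ± 0.17.

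**Figure D2:**
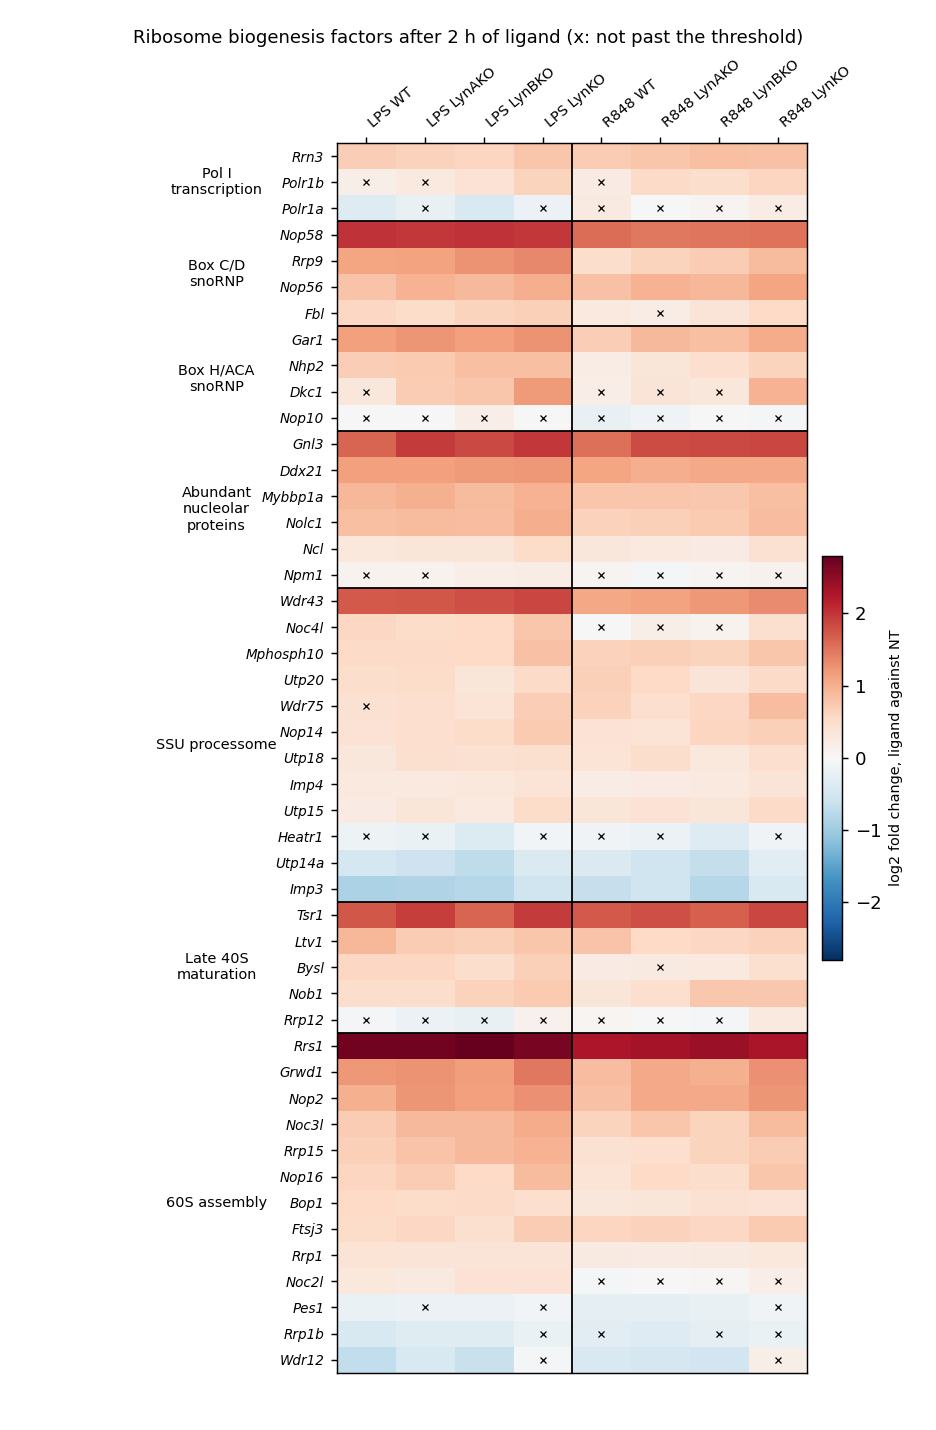
log2 fold change of the 47 members (rows, by role) for LPS and R848 against NT in the 4 genotypes (columns, 4 libraries a group). Red is higher and blue lower with ligand, and a cross marks a value that did not pass the threshold: Rrs1, Nop58, Gnl3, Wdr43 and Tsr1 are the darkest red rows, and Imp3 and Utp14a are blue in all 8 columns.

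The same comparisons were made within each knockout. With LPS, 36 members were higher and 4 lower in LynAKO (30.4% and 30.3% of all genes tested), 38 and 7 in LynBKO (33.9% and 33.4%) and 38 and 2 in LynKO (31% and 30.7%). With R848 the counts were 32 and 5 in LynAKO (29% and 26.9% of all genes), 34 and 5 in LynBKO (31.3% and 32.2%) and 37 and 2 in LynKO (28.4% and 27%). Without the 2 NT libraries that held transcripts of both sexes, the counts were 38 and 6 with LPS and 35 and 5 with R848 in LynBKO, and they stayed at 38 and 2 and at 37 and 2 in LynKO. The medians of the members' log2 fold changes with LPS were 0.53 (WT), 0.52 (LynAKO), 0.55 (LynBKO) and 0.72 (LynKO), and with R848 they were 0.37, 0.47, 0.49 and 0.65.

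In all 8 comparisons 30 members were higher and 2, Imp3 and Utp14a, were lower, and no member passed in opposite directions in different genotypes. The share of all genes that passed in all 8 is not given, under either scaling, and the LPS and R848 comparisons of a genotype share its NT libraries. Whether such consistency is particular to the members was not tested. Rrs1 led in each genotype, with log2 fold changes between 2.66 and 2.79 with LPS and between 2.27 and 2.41 with R848. With LPS Nop58 lay at 1.97 to 2.03, Gnl3 at 1.62 to 1.98, Tsr1 at 1.63 to 1.95 and Wdr43 at 1.72 to 1.87. Under both scalings 10 members rose in all 8 comparisons, namely Ddx21, Gnl3, Grwd1, Ltv1, Mybbp1a, Nop2, Nop58, Rrs1, Tsr1 and Wdr43, and Imp3 and Utp14a fell in all 8 under both. Total counts lowered the fold changes in each comparison, which makes them the stricter scale for rises. For the same reason, Imp3 and Utp14a, lower by TMM, could hardly fail to be lower by total counts. Without the 2 NT libraries that held both sexes, these counts over all 8 were again 30 and 2, and 10 and 2 under both scalings. By total counts the split of members higher and lower with LPS was 15 and 11 in LynAKO (17.1% and 56.7% of all genes), 17 and 14 in LynBKO (18% and 59.9%) and 23 and 9 in LynKO (17.2% and 56.2%). With R848 it was 16 and 11 (17.4% and 48.4%), 21 and 12 (18.5% and 53.7%), and 25 and 6 (17% and 46.4%). Without the 2 NT libraries, the split by total counts was 18 and 13 with LPS and 20 and 11 with R848 in LynBKO, and 26 and 9 and 25 and 5 in LynKO. Nop10 passed in none of the 8. Summed over the 47 genes, the level was 2139 CPM ± 80.2 (SD, n = 4) in untreated WT, 3065 ± 148 with LPS and 2806 ± 230 with R848, and in LynKO it was 2170 ± 65.9, 3462 ± 306 and 3217 ± 315.

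**Figure D3:**
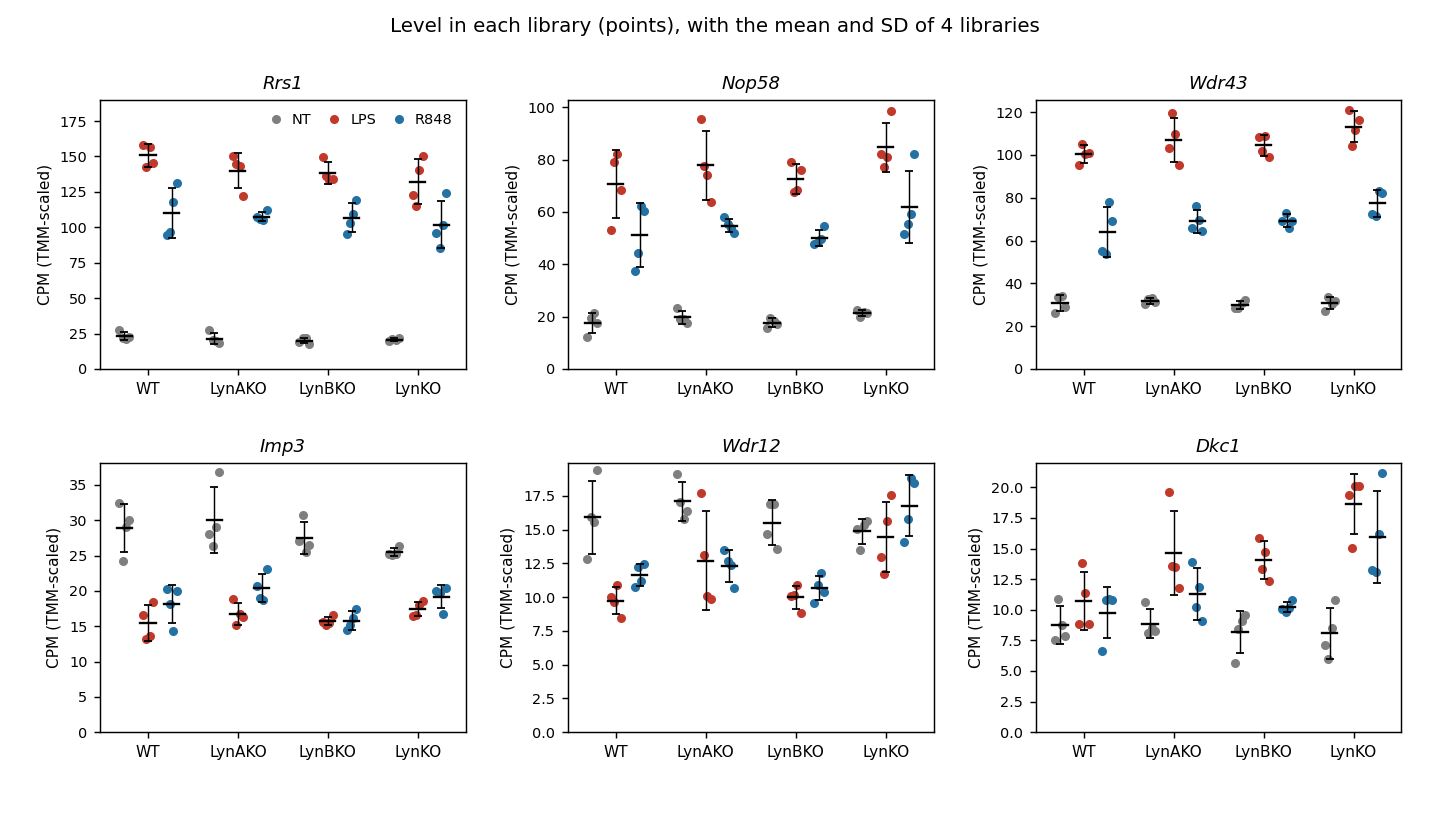
CPM (vertical axis, TMM-scaled) of 6 members in each of the 48 libraries, by genotype (horizontal axis) and treatment (grey NT, red LPS, blue R848), with the mean and SD of 4 libraries. Rrs1, Nop58 and Wdr43 are above all untreated libraries with either ligand in each genotype, Imp3 is below them, and Wdr12 is lower with either ligand in WT (8.48 to 12.4 CPM) than in LynKO (11.7 to 18.8 CPM), and Dkc1 with LPS is higher in LynKO (15.01 to 20.1 CPM) than in WT (8.83 to 13.8 CPM).

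LPS and R848 were also compared with each other. In WT, 10 members (21.3%) were higher with LPS than with R848 and 1 (2.13%) was lower, where 10.9% of all genes tested were higher and 10% lower. Wdr43 (0.64 ± 0.11, log2), Nhp2 (0.48 ± 0.08) and Noc2l (0.31 ± 0.07) had the smallest p of those higher with LPS, and the libraries with LPS did not overlap those with R848 for any of the 3. For Nhp2 the values were 63.2, 60.3, 58.2 and 58.1 CPM with LPS against 43.6, 41.3, 41.3 and 44.3 with R848. For Noc2l they were 96.3, 95.9, 98.0 and 93.3 CPM with LPS against 75.4, 74.6, 76.9 and 79.3 with R848. The others higher with LPS were Rrp9, Rrs1, Noc4l, Bysl, Gar1, Bop1 and Fbl. Polr1a was the member that was lower with LPS (-0.63 ± 0.14, edgeR adjusted p = 0.00261), at 25.5 to 32.5 CPM against 38.3 to 52.8 with R848. Each ligand was used at 1 dose, so the comparison is between these 2 treatments.

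In LynAKO 5 members (10.6%) were higher with LPS than with R848 and 0 lower, where 9.7% of all genes tested were higher and 7.92% lower. In LynBKO 11 (23.4%) were higher and 2 (4.26%) lower (14.2% and 12.3% of all genes). In LynKO 3 (6.38%) were higher and 1 (2.13%) lower (9.73% and 6.13% of all genes). The share of members higher with LPS was thus near that of all genes in LynAKO and below it in LynKO. DESeq2 gave 8 and 0 in LynAKO, where no member passed as lower by edgeR and 11 members had an unadjusted p under 0.05 in either direction. Rrs1 and Wdr43 were higher with LPS in all 4 genotypes, for which the share of all genes is not given. Nop58 passed in LynAKO, LynBKO and LynKO (0.49 ± 0.12, 0.54 ± 0.08 and 0.46 ± 0.13). With the mouse as a block, the counts of members were 11 and 1 in LynAKO and 8 and 1 in LynKO. Shares of all genes are not given for the unadjusted count or for the DESeq2, block and left-out fits. Leaving out WT mouse 2 reduced the members passing in WT from 11 to 6, and leaving out mouse 2 or 3 of LynAKO, or mouse 1, 2 or 3 of LynKO, left 2 and 1 members, while leaving out mouse 4 gave 11 in LynAKO and 7 in LynKO. Without the libraries numbered 1 or 2 of LynBKO 8 members passed in place of 13. By total counts 5 members were higher and 3 lower with LPS than with R848 in WT (7.59% and 21.8% of all genes), 2 and 2 in LynAKO (7.26% and 20.1%), 6 and 7 in LynBKO (9.17% and 24.5%) and 1 and 4 in LynKO (7.11% and 18.9%). Under both scalings Wdr43 was higher with LPS in all 4 genotypes, Rrs1 only in WT and LynBKO, and Polr1a lower in WT, LynBKO and LynKO. Total counts lowered these fold changes too, so Polr1a, lower by TMM, could hardly fail to stay lower.

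Genes of the pathway outside the members were counted in the same way, in lists also chosen with earlier results of these data known. Of 81 other ribosome biogenesis factors, 56 rose and 8 fell with LPS (median 0.44, log2) and 54 rose and 5 fell with R848 (median 0.37). The largest rises there were of Tma16 (4.02 ± 0.19 with LPS, 4.20 ± 0.19 with R848) and Rcl1 (3.47 ± 0.14 and 2.55 ± 0.14), and the largest falls of Ddx55 (-0.51 ± 0.15 and -0.61 ± 0.15) and, with LPS, Surf6 (-0.44 ± 0.11) and, with R848, Dhx37 (-0.36 ± 0.11). The 79 genes of cytosolic ribosomal proteins, the product that these factors assemble, had a median of 0.12 with LPS, 11 rising and 0 falling, and -0.06 with R848, 1 rising and 1 falling, by edgeR. With LPS 17 of the 79 had an unadjusted p under 0.05. These ribosomal protein counts share reads with many pseudogenes and are uncertain.

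Other polymerase and RNA decay lists were split. Of 12 factors and subunits of RNA polymerase I that are not members, 3 rose and 2 fell with each ligand, with Polr1e (0.71 ± 0.16) and Twistnb (0.69 ± 0.14) highest with LPS, Taf1d (0.79 ± 0.12) highest with R848 and Cd3eap falling by 0.39 with LPS. Of 14 subunits of RNA polymerase III, 3 rose and 7 fell with LPS and 4 rose and 7 fell with R848. Polr3d rose by 1.89 ± 0.12 with LPS and 1.42 ± 0.12 with R848, and Polr3g changed by -1.33 ± 0.31 and -0.93 ± 0.30. Of 13 tested RNA exosome genes, 5 rose and 3 fell with LPS, led by Mphosph6 (1.10 ± 0.10) and Dis3 (0.92 ± 0.17) against Exosc5 (-0.58 ± 0.11) and Exosc7 (-0.58 ± 0.16), and 6 rose and 3 fell with R848.

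Myc rose with both ligands in WT. It read 1.95, 5.15, 5.31 and 3.11 CPM untreated, 20.1, 18.2, 20.0 and 16.8 with LPS and 24.4, 37.2, 25.8 and 23.1 with R848 (2.28 ± 0.23 and 2.85 ± 0.23, log2), with no overlap. Its partner Max rose with LPS (0.65 ± 0.07) and not with R848 (0.02 ± 0.08). Mxd1, which competes with Myc for Max, rose with LPS (2.26 ± 0.11) and fell with R848 (-0.73 ± 0.11), and Mxi1 fell with LPS (-0.78 ± 0.21) and was -0.38 ± 0.20 with R848. Mycl changed by 6.87 ± 0.34 and 7.60 ± 0.33 and Mnt by -2.09 ± 0.13 and -1.86 ± 0.13. As a description, the 11 members with CACGTG in their window had a median log2 fold change of 0.92 with LPS in WT and 0.78 with R848, and the 31 members with a window that lacked it had 0.49 and 0.34, with ranges that overlapped (-0.19 to 1.73 against -0.89 to 2.02 with LPS). The letters were in the windows of 10 of the 31 members higher with LPS in WT and of 1 of the 11 others with a window, Pes1. Other letters divided the members in the same direction: CCGGAAG was in 13 of the 31 and 1 of the 11 (41.9% and 9.09%) and GGGCGG in 25 and 5 (80.6% and 45.5%), while TATAAA was in 0 and 2. All genes tested were not split in this way, so these shares have no background beside them. Whether Myc had a part in the changes was not tested.

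Genotypes were then compared within each treatment. LynAKO and LynBKO did not differ from WT in any of the 47 members, untreated or with either ligand, by edgeR or DESeq2. The members with an unadjusted p under 0.05 numbered 0 untreated, 3 with LPS and 0 with R848 in LynAKO, and 4, 1 and 1 in LynBKO. The share of all genes at that unadjusted threshold is not given. By adjusted p, the percentages of all genes tested that were higher and lower in LynAKO were 0.00715% and 0.0215% untreated. They were 0.00715% and 0.0143% with LPS and 0% and 0.00715% with R848. In LynBKO they were 0.0286% and 0.0358% untreated, 0.00715% and 0.0286% with LPS and 0% and 0% with R848. The members' log2 differences from WT lay between -0.19 and 0.44 in LynAKO and between -0.35 and 0.38 in LynBKO, over the 3 treatments, with a median SE of 0.10 to 0.12. The highest was Dkc1 with LPS in LynAKO (0.44 ± 0.17) and the lowest Nop10 untreated in LynBKO (-0.35 ± 0.12). Without the LynBKO and LynKO NT libraries that held both sexes, 0 members differed in untreated LynBKO by edgeR, with 2 at an unadjusted p under 0.05.

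In untreated LynKO macrophages 0 members differed from WT by edgeR, with 5 at an unadjusted p under 0.05, and 0 by DESeq2, although 5.43% of all genes tested were higher and 4.47% lower. The median of the members was 0.01. Without the LynBKO and LynKO NT libraries that held both sexes, again 0 passed by edgeR, with 1 at an unadjusted p under 0.05. Differences appeared with the ligands. With LPS, 8 members were higher in LynKO than in WT and 0 lower, where 4.43% of all genes were higher and 4.06% lower, and the members' median was 0.22 (44 of 47 above 0) against 0.02 over all genes. With R848, 5 members were higher and 0 lower, where 3.19% of all genes were higher and 2.74% lower, and the median was 0.27 (45 of 47 above 0) against 0.01. Unadjusted, 26 members with LPS and 28 with R848 had a p under 0.05. With the replicate number as a block, 13 members were higher with LPS and 20 with R848, and 0 lower. For these 2 comparisons the block pairs libraries that deviate together and share their labelled sex. The share of all genes is not given for the unadjusted counts or the block fit, so those counts have no background beside them.

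Dkc1 had the largest difference. With LPS it read 19.3, 15.01, 20.1 and 20.1 CPM in LynKO against 8.83, 13.8, 11.4 and 8.84 in WT, with no overlap (0.80 ± 0.16, log2, edgeR adjusted p = 0.00416). With R848 it read 13.3, 13.1, 16.2 and 21.2 against 6.61, 10.8, 10.8 and 10.8, again without overlap (0.71 ± 0.18, adjusted p = 0.0229, edgeR). Untreated, the groups overlapped, at 7.13, 5.95, 8.48 and 10.8 CPM in LynKO and 7.54, 10.9, 8.79 and 7.82 in WT.

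Wdr12 was higher in LynKO with both ligands. It read 12.9, 11.7, 15.6 and 17.6 CPM in LynKO and 8.48 to 10.9 in WT with LPS (0.59 ± 0.17), and 14.1, 15.7, 18.8 and 18.5 against 10.7 to 12.4 with R848 (0.53 ± 0.12). In LynKO the gene did not pass as lower with either ligand (-0.05 ± 0.13 with LPS and 0.16 ± 0.13 with R848 against NT), in contrast to its calls in the 3 other genotypes. Nop56 was the third member higher with both ligands, at 60.6, 58.0, 59.9 and 79.5 CPM in LynKO and 41.2, 51.9, 46.6 and 43.5 in WT with LPS (0.51 ± 0.13) and at 59.4 to 88.2 against 37.3 to 55.3 with R848 (0.57 ± 0.13). The library LynKO replicate 4 was the highest of its group for Nop56 with both ligands.

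The other members higher with LPS in LynKO were Polr1a (0.51 ± 0.10, at 36.4 to 46.7 CPM against 25.5 to 32.5), Ftsj3, a methyltransferase of large-subunit assembly (0.39 ± 0.10), Wdr75 (0.47 ± 0.14), Ncl (0.29 ± 0.09) and Rrp1b (0.53 ± 0.16). Ftsj3 read 75.2, 68.0, 71.7 and 84.1 CPM in LynKO against 54.1, 60.6, 58.0 and 59.1 in WT, and Wdr75 29.3, 24.1, 25.1 and 29.2 against 13.5, 21.6, 23.2 and 20.2. Libraries of the 2 genotypes overlapped for Rrp1b and not for the other 4. Those higher with R848 alone were Rrp12 (0.42 ± 0.10, at 16.9 to 21.1 CPM against 13.3 to 14.4) and Nop2 (0.44 ± 0.12, with overlap). That a member passed with 1 ligand and not the other does not show that the 2 differ, which was not tested.

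The number of members higher in LynKO was sensitive to single mice and to the fit. With LPS it was 2 without WT mouse 1 or without LynKO mouse 4 and 4 without WT mouse 4 or LynKO mouse 3. With R848 it was 3 without WT mouse 1 or LynKO mouse 3, 11 without WT mouse 3 and 9 without LynKO mouse 2. By total counts, which moved the median of all genes from 0.02 to 0.12 with LPS and from 0.01 to 0.11 with R848, 23 members were higher with LPS (8.39% of all genes) and 24 with R848 (6.23%), and DESeq2 gave 12 and 13. In each of these settings 0 members passed as lower. The share of all genes is not given for DESeq2 or for the fits without a mouse.

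**Figure D4:**
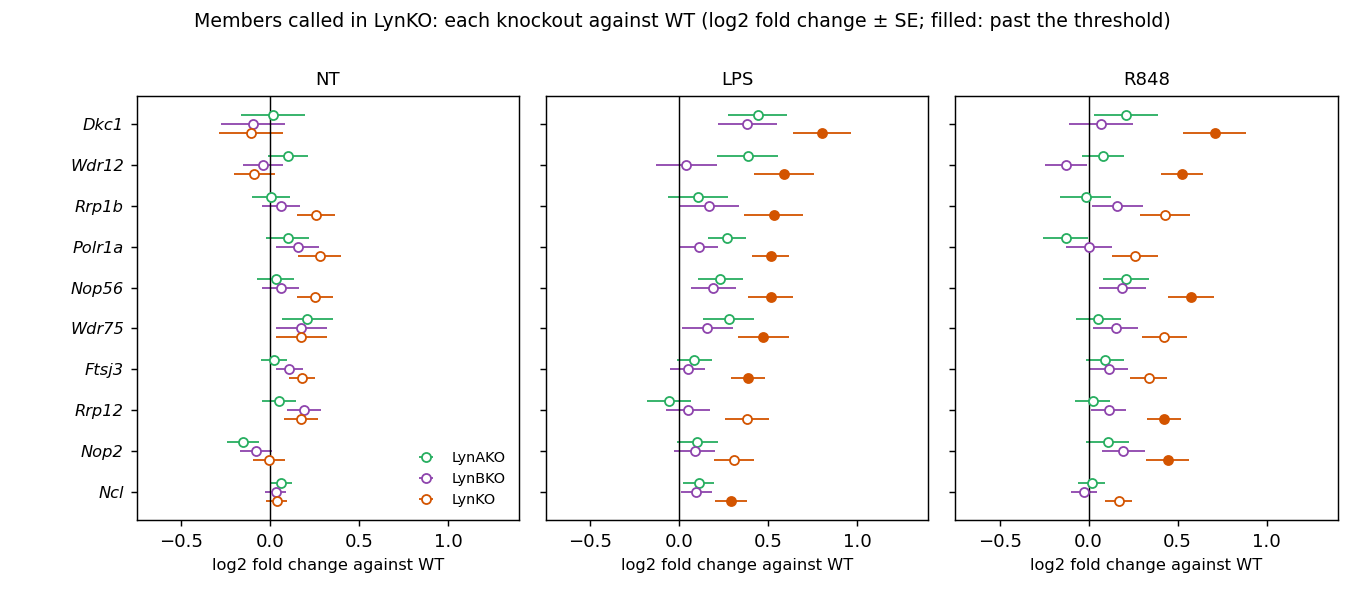
log2 fold change against WT, with its SE (horizontal axis), of the 10 members that passed in LynKO with a ligand, for LynAKO (green), LynBKO (purple) and LynKO (orange) in untreated, LPS and R848 libraries. Filled points passed the threshold: none did untreated, 8 did with LPS and 5 with R848, all of them in LynKO.

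Whether the response to a ligand itself differed between a knockout and WT was tested as a difference of differences over all 48 libraries. No member passed in any of the 6 tests by edgeR, and 0 by DESeq2. For LynKO 0.0501% of all genes tested passed as higher and 0.0501% as lower with LPS, and 0.0858% and 0.107% with R848. At an unadjusted edgeR p under 0.05 there were 7 members with LPS and 11 with R848, all above 0. The share of all genes at that unadjusted threshold is not given, so these counts have no background beside them. The LynKO response exceeded that of WT in 42 of 47 members with LPS (median 0.20) and in 43 with R848 (median 0.24), against 7196 and 7459 of the 13986 genes tested. For LynAKO the counts above 0 were 35 and 31 (medians 0.05 and 0.05) and for LynBKO 30 and 32 (0.05 and 0.09), and 0 or 1 member had an unadjusted p under 0.05. The median SE of a member's difference was 0.16, so differences of the size of these medians could not be detected gene by gene.

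A fit with the replicate number within a genotype as a block gave 2 members with LPS and 3 with R848 in LynKO (share of all genes not given). Dkc1 passed with LPS (0.94 ± 0.17, edgeR adjusted p = 0.0033) and R848 (0.83 ± 0.18, adjusted p = 0.00892), and Wdr12 likewise (0.65 ± 0.15, adjusted p = 0.0259, and 0.61 ± 0.15, adjusted p = 0.0281). Nob1 passed with R848 (0.46 ± 0.12, adjusted p = 0.036, edgeR). That fit holds the LynBKO libraries, whose numbers do not follow a mouse. In the block fit without them, an alternative added after the sex of the libraries was seen, Dkc1 passed with LPS (0.93 ± 0.16, edgeR adjusted p = 0.00186) and R848 (0.83 ± 0.16, adjusted p = 0.00561) and Nob1 with R848 (adjusted p = 0.0486), but Wdr12 did not (adjusted p = 0.0571 with each). With LynKO NT replicate 4 also left out, Dkc1 alone passed, at 0.98 ± 0.17 with LPS (edgeR adjusted p = 0.00473) and 0.88 ± 0.17 with R848 (adjusted p = 0.0107). Without the block Dkc1 stood at 0.90 ± 0.26 with LPS and 0.83 ± 0.26 with R848, with adjusted p of 0.165 and 0.235. LPS and R848 responses share the untreated libraries. Without the LynBKO and LynKO NT libraries that held both sexes, 0 members passed in the fit without a block, and the medians for LynKO were 0.21 and 0.26.

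Proliferation markers differed between LynKO and WT also in untreated cells, where no member passed. All 12 markers were higher in untreated LynKO than in WT (median 1.05, log2), 10 of 12 with LPS (0.90) and 11 of 12 with R848 (0.89). The exceptions with LPS were Mki67 (-0.20 ± 0.10) and Ccnb1 (0.74 ± 0.25, edgeR adjusted p = 0.073), and with R848 Mki67. By total counts, without TMM, their summed level was 288 to 406 CPM in untreated WT and 616 to 777 in untreated LynKO. It was 445 to 567 and 668 to 735 with LPS, and 385 to 547 and 664 to 753 with R848, with no marker at 0. Summed macrophage markers, also by total counts, were 44184 to 52162 CPM in untreated WT and 30689 to 33414 in untreated LynKO. Myc read 1.04 ± 0.34 higher (log2) in untreated LynKO, 0.36 ± 0.13 with LPS and 0.46 ± 0.16 with R848, none of which passed (edgeR adjusted p = 0.057, 0.101 and 0.105). Without the NT libraries that held both sexes, all 12 markers were again higher in untreated LynKO (median 1.06) and Myc stood at 0.73 ± 0.35 (edgeR adjusted p = 0.239). The part of proliferating cells in the LynKO differences was not tested.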

How the data were processed

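The authors deposited a table of raw read counts per gene for the 48 libraries and a table of log2-scale variance-stabilised values. Per the submitters' processing notes reads were handled with Trimmomatic 0.36 and STAR 2.5.2b, counting used featureCounts (Subread 1.5.2), DESeq2 was also used, and the build was GRCm38. Neither the annotation release nor the strand setting is stated. Per the labels, replicates were separate mice.

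Members and lists were chosen with earlier results of these data known. Genes with too few counts were removed with filterByExpr of edgeR (minimum count 10, minimum total 15), which left 13986. TMM put the libraries on 1 scale. The main test was edgeR's quasi-likelihood F test (edgeR version 4.0.16, R version 4.3.3), with Benjamini-Hochberg adjustment over all genes and a threshold of 0.05. There were 27 comparisons. Ligands were compared within a genotype (12 libraries a fit), genotypes within a treatment (16 libraries), and responses over all 48. Standard errors are the size of the log2 fold change divided by the square root of its F statistic. CPM values are TMM-scaled, except the summed markers of cell types and proliferation and the Y-linked and Xist values, which are by total counts. Levels per kilobase use the length of all annotated exons. The deposited log2 variance-stabilised values served as a second scale only. The test was checked on simulated counts.

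Within a genotype, libraries with 1 replicate number were taken as 1 mouse, since 4 mice gave 12 libraries, except for the LynBKO NT libraries, where labelled sex differs at numbers 2 and 3. Deviations from the group means correlated above 0.1 in 40 of 40 same-numbered pairs without LynBKO NT (lowest 0.11) and in 1 of 8 with it (lowest -0.21), against 11 of 144 pairs with other numbers. LynBKO fits with the block, or with a number left out, therefore join different animals. Between LynKO and WT all 4 same-numbered pairs were above 0.1 with LPS (lowest 0.11) and with R848 (lowest 0.15), and 3 of 4 untreated. The numbers were therefore taken to pair these libraries with the ligands. Labels do not state a pairing of mice between genotypes. These pairs also share their labelled sex, which the correlations do not separate from other shared factors. For LynBKO and WT with LPS, 4 of 4 pairs were above 0.1, and the block left the count at 0. Alternatives were DESeq2 1.42.0, its size factors, no filter, sex as a covariate, 1 model for all libraries, the replicate block, each replicate left out and, added after seeing the data, total counts, total counts without the 2 NT libraries that held both sexes, and block fits without LynBKO libraries. Values by library are given for the members with the highest and the lowest change with LPS in each role, and for the members with the smallest p in other comparisons.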

Additional observations from a re-analysis of the deposited data

Results flagged for a closer look

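In 7 of 180 groups of 4 libraries, for members described above, 1 library stood apart from the other 3 by Dixon's criterion, which chance gives in about 1 of 20 groups. In LynAKO with LPS, replicate 4 was low for Gar1 (22.7 CPM, the others 26.7 to 27.3) and for Rrn3 (35.7 CPM, the others 45.8 to 47.7). In untreated LynKO, replicate 4 was high for Imp3 (26.4 CPM, the others 25.1 to 25.2) and for Npm1 (311 CPM, the others 296 to 298). In LynBKO with LPS, replicate 3 was low for Nop10 (22.4 CPM, the others 27.8 to 28.5) and replicate 1 high for Rrs1 (149 CPM, the others 134 to 136). In LynKO with R848, replicate 3 was high for Polr1a (69.6 CPM, the others 48.9 to 50.04).

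Outside the main measurement, Y-linked genes stood at 161.6 CPM in LynBKO NT replicate 4 and 89.6 CPM in LynKO NT replicate 4, which are labelled female, against 0 to 0.654 CPM in the other 22 libraries so labelled. Xist was present in both.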

How the results depend on the processing

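Counts of members past the threshold in either direction kept within 1.5 times the reported count in 187 of 213 settings other than leaving out a replicate, and in 149 of 168 that left out 1. This tally joins both directions and takes 0 against 0 as kept, as in the single knockouts against WT, so it says little of stability. For LPS in WT total counts were tallied as kept, although the members went from 34 higher and 6 lower to 14 and 14. With total counts the members past the threshold numbered 24 for R848 in WT (37 with TMM), 26 for LPS in LynAKO (40 with TMM), and 23 and 24 for LynKO against WT with LPS and R848. Also with total counts, of the members given by library, Fbl (-0.092), Npm1 (-0.30) and Rrp12 (-0.31) turned with R848 in WT, Npm1 (-0.40) with LPS in WT, Npm1 (-0.23) and Rrp12 (-0.32) with LPS in LynKO, and Npm1 (-0.19) and Rrp12 (-0.025) with R848 in LynKO. Without the 2 NT libraries that held both sexes, the LynKO values were -0.21 (Npm1, LPS), -0.30 (Rrp12, LPS) and -0.00658 (Rrp12, R848). Over all 47 members the sign turned in 13 with LPS and 15 with R848 in WT, 11 and 9 in LynAKO, 13 and 11 in LynBKO and 7 and 5 in LynKO. Members past the threshold in opposite directions by the 2 scalings were Imp4, Noc2l and Utp15 in WT, Imp4 in LynAKO, Imp4, Ncl, Npm1, Rrp1 and Utp15 in LynBKO and Npm1 in LynKO, all with LPS, and none with R848. The cause of the other changes was not tested.

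LPS against R848 in LynAKO gave 12 members with the replicate block, 8 with DESeq2 and 10 in 1 model of all libraries, LynBKO gave 8 in that model, and LynKO gave 9 with the block. LynKO against WT with LPS gave 15 without the filter and 13 with the replicate block. Shares of all genes are not given for the settings of this paragraph. With R848 it gave 14 without the filter, 13 with sex as a covariate, 20 with the block, 13 with DESeq2 and 16 in 1 model of all libraries. Without the filter 1 member passed in untreated LynBKO, in untreated LynKO and in each LynKO response, and with the block 2 and 3 passed in the LynKO responses to LPS and R848, which became 1 and 2 without the LynBKO libraries and 1 and 1 without LynKO NT replicate 4 as well. Between WT and a knockout, replicate numbers were not taken to pair libraries other than for LynKO with a ligand and LynBKO with LPS, and over all genotypes same-numbered libraries of a treatment correlated above 0.1 in 48 of 72 pairs.

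Leaving out each replicate in turn gave 6 to 11 members for LPS against R848 in WT, 2 to 11 in LynAKO, 8 to 12 in LynBKO and 1 to 7 in LynKO. It gave 0 to 1 for LynKO against WT untreated, 2 to 9 with LPS and 3 to 11 with R848. With 4 mice a group, differences of the size of the SEs given, or of several SEs, could stay undetected in single genes. In simulated counts 42% of 1.5-fold changes were recovered for LPS in WT and 30% for the LynKO response to LPS.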
